A study of Mus musculus with 2 samples.

Results

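The genes described here are 10 established transcriptional targets of p53 in mouse liver: Cdkn1a, Mdm2, Ccng1, Trp53inp1, Sesn1, Phlda3, Zmat3, Eda2r, Plk2 and Btg2. They were picked by gene symbol, with their ratios in these libraries already known, and all 10 were found among the 47442 features of the deposited tables. The mice were labelled C57BL/6, 8 to 9 weeks old, and their livers were taken 10 days after a tail vein injection of adenovirus. The control virus carried β-Gal, a bacterial enzyme used as an inert cargo, and the other virus carried GBP5, a GTPase that interferon induces. All animals thus carried an adenovirus, and no group without virus was analysed here. Each group was 1 RNA sequencing library. How many animals each represents, and whether they were pooled, the sources used here do not say. Library totals of about 18405000 (β-Gal) and 17206000 (GBP5) reads were inferred from the FPKM and transcript lengths. With 1 library per group there was no test, and differences between individual livers and the effect of the virus cannot be told apart.

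The transcription factor p53, encoded by Trp53, is stabilised when DNA is damaged, when ribosome assembly is disturbed or when an oncogene is active. It then binds a response element made of a pair of half-sites and switches on genes that stop the cell cycle, repair DNA, change metabolism or start apoptosis, together with genes such as Mdm2 that shut p53 down again. In the liver this programme is known from DNA damage, partial hepatectomy and steatohepatitis, and Cdkn1a is the target most often used to report on it.

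The deposited values carry no sequence, so the promoters of these genes are shown from RefSeq (GRCm38.p6, from 250 bases before to 50 bases after an annotated start) to let the reader see where a p53 response element lies near a start. Windows were found for 8 of the 10 genes, with a pair of windows each for Cdkn1a and Sesn1. A p53 site, taken as a pair of adjacent half-sites of the p53 consensus with at most 1 mismatch, was found in 2 of these 10 windows, those of Ccng1 and of the upstream start of Cdkn1a. Of all 32851 RefSeq windows, 0.0883% held such a site. In the lines below the capitals mark the core of each half-site.
Cdkn1a, chr17:29090928-29090947, plus strand, 51 bases before the upstream start: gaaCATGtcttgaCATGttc
Ccng1, chr11:40755462-40755481, minus strand, 195 bases before the start: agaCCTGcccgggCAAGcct
The Cdkn1a site is shown next in its whole window, chr17:29090729-29091028, with the site in capitals.
Cdkn1a upstream window: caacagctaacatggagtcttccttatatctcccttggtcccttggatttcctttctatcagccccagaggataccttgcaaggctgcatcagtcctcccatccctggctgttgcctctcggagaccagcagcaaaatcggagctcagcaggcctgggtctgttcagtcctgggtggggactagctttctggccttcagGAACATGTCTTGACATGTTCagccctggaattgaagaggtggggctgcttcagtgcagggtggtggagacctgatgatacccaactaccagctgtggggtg

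Windows of Plk2 and Btg2, genes that growth factors also switch on quickly, held the cyclic AMP response element TGACGTCA, searched on both strands and present in 1.79% of all windows. It is shown in capitals with its flanks.
Plk2, chr13:110394966-110395005, plus strand: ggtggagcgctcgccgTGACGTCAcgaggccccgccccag
Btg2, chr1:134079298-134079337, minus strand: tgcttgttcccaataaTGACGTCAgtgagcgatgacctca
The AP-1 motif TGANTCA was in none of the 10 windows and in 7.81% of all windows. The antioxidant response motif TGACNNNGC, which shares its first bases with TGACGTCA, was in the windows of Eda2r and of the downstream start of Cdkn1a and in 12.4% of all windows. These matches describe letters in short windows only. Response elements in introns or farther upstream lie outside them.

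Most of the 10 genes were higher in the GBP5 library. On the scale of log2(FPKM + 1), where FPKM counts fragments per unit of transcript length and of library size, 8 of 10 were at least 2-fold higher and 0 were at least 2-fold lower, against 19.2% and 5.56% of the 13599 features that reached 1 FPKM in at least 1 library. The median log2 ratio was 1.52 for these genes and 0.48 for all measured features. Since most features lay above parity, the GBP5 library was also divided by the median FPKM ratio of 11828 genes, 1.45. After this rescaling 6 of 10 genes were at least 2-fold higher, against 7.04% of all features, and 0 were at least 2-fold lower, against 9.38%. The medians were then 1.02 and 0.03. The genes were chosen with these ratios known, so the counts describe the choice and support nothing further.

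**Figure D1:**
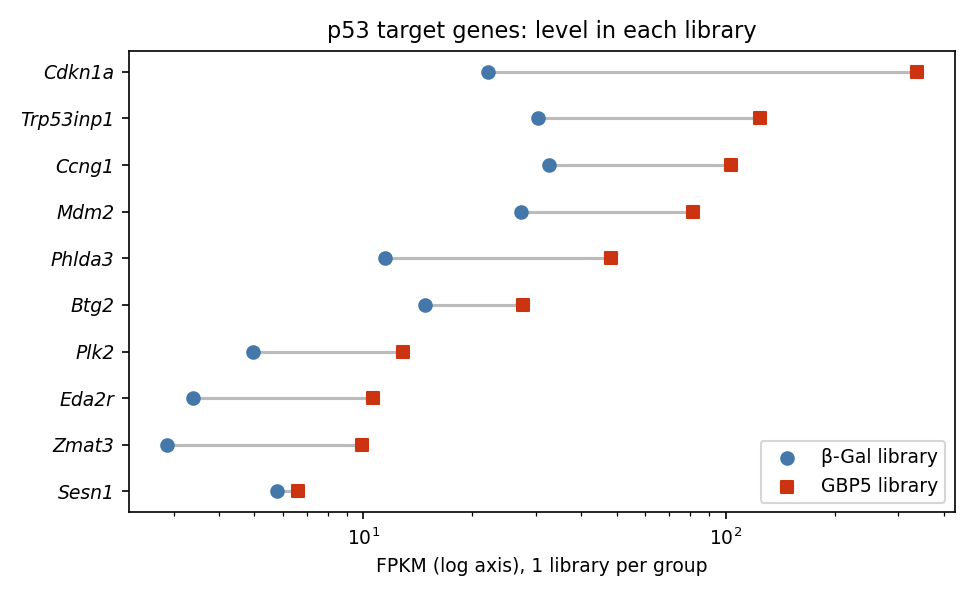
Level of each p53 target gene in FPKM (log axis) in the β-Gal library (circles) and the GBP5 library (squares), 1 library each, ordered by the GBP5 level. Cdkn1a spans the widest interval, from 22.1 to 338 FPKM, whereas the Sesn1 symbols nearly touch at 5.78 and 6.59 FPKM.

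Of the genes that act on the cell cycle, Cdkn1a stood apart. It encodes p21, an inhibitor of cyclin-dependent kinases that also binds the replication clamp PCNA (ENSMUSG00000023067, chromosome 17, 29090976 to 29100727, plus strand, GRCm38). Cdkn1a was at 22.1 FPKM with β-Gal and 338 FPKM with GBP5. The GBP5 library was thus 15.3-fold higher, with an approximate 95% counting interval of 14.1 to 16.7, and 10.6-fold higher after rescaling. Only 0.221% of measured features had a higher log2 ratio. Cdkn1a made up 14.2% of the summed FPKM of the 10 genes with β-Gal and 44.3% with GBP5.

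Plk2, a polo-like kinase of centriole duplication, was at 4.96 FPKM (β-Gal) and 12.9 FPKM (GBP5). That is a ratio of 2.60, with an approximate interval of 2.14 to 3.18, and 1.80 after rescaling. Btg2, an antiproliferative protein that speeds the removal of poly(A) tails, was at 14.8 and 27.7 FPKM. Its ratio of 1.87 (interval 1.70 to 2.04, from 749 and 1306 reads) stayed short of 2-fold and became 1.29 after rescaling. Plk2 and Btg2 were among the 3 lowest ratios of the 10, the third being Sesn1. On the log2 scale with the pseudocount, Plk2 at 1.22 lay just inside the 2-fold limit and Btg2 at 0.86 just outside.

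Mdm2 and Ccng1, which act in negative feedback on p53, were both higher. Mdm2, the ubiquitin ligase that marks p53 for degradation (ENSMUSG00000020184, chromosome 10, 117688875 to 117710758, minus strand), was at 27.2 FPKM with β-Gal and 81.1 FPKM with GBP5. Its ratio was 2.98, with an approximate interval of 2.75 to 3.22. Ccng1, cyclin G1, which brings a phosphatase to Mdm2, was at 32.5 and 103 FPKM. Its ratio was 3.18 (interval 2.99 to 3.39, from 1291 and 3841 reads), so that the intervals of Ccng1 and Mdm2 overlapped. After rescaling the ratios were 2.06 for Mdm2 and 2.20 for Ccng1, and the log2 ratio of Mdm2 with the pseudocount, 1.01, lay at the 2-fold limit.

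Trp53inp1 and Phlda3 had the highest ratios after Cdkn1a. Trp53inp1 encodes a stress protein that promotes p53 phosphorylation and autophagy. Its level was 30.4 FPKM with β-Gal and 125 FPKM with GBP5, 4.10-fold higher (interval 3.90 to 4.32, from 1833 and 7028 reads). Phlda3, a small pleckstrin homology protein that keeps the survival kinase Akt off the membrane, was at 11.4 and 48.3 FPKM. That is 4.22-fold higher, with an interval of 3.62 to 4.93 (from 211 and 832 reads), and the order of this pair is within counting error. After rescaling the ratios were 2.83 and 2.91.

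Zmat3 and Eda2r were expressed at a low level and were also higher. Zmat3, a zinc finger protein that binds RNA and affects splicing, was at 2.86 and 9.90 FPKM. That is 3.46-fold higher, with an interval of 3.004 to 3.99 (from 260 and 840 reads). Eda2r, a receptor of the TNF receptor family for an ectodysplasin isoform, was at 3.39 and 10.6 FPKM. That is 3.13-fold higher, with an interval of 2.58 to 3.82 (from 142 and 416 reads). After rescaling, their log2 ratios with the pseudocount were 1.02 and 0.93, on either side of the 2-fold limit.

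Sesn1 was the gene that differed least. It encodes sestrin 1, which restrains the growth kinase complex mTOR. Sesn1 was at 5.78 FPKM with β-Gal and 6.59 FPKM with GBP5. The ratio was 1.14, with an approximate interval of 0.952 to 1.38 that includes parity, so as deposited this depth could not show a difference. The whole interval lay below the median ratio used for rescaling, 1.45, and after rescaling the ratio was 0.787. Of measured features, 70.6% had a higher log2 ratio than Sesn1.

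**Figure D2:**
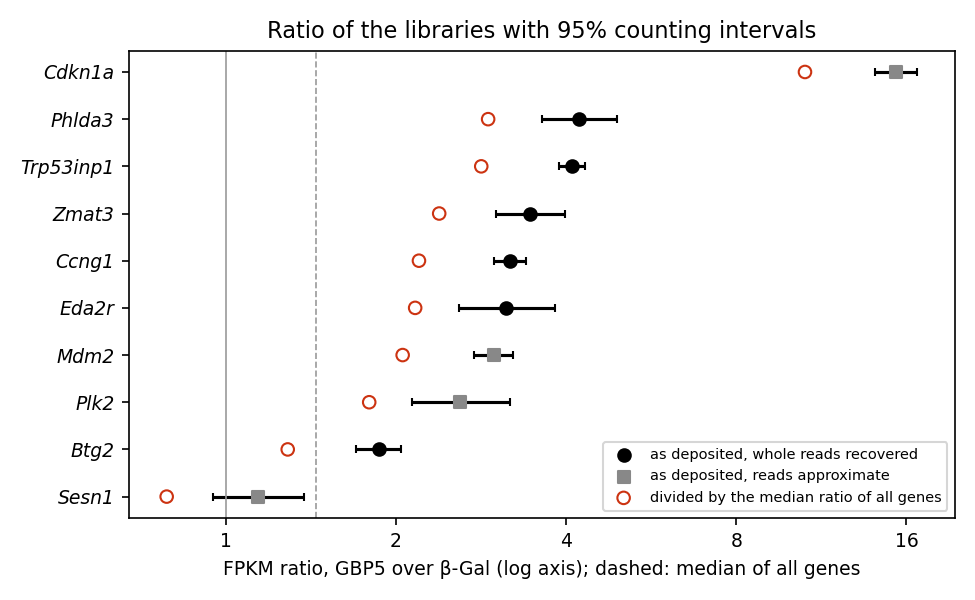
FPKM ratio of the GBP5 over the β-Gal library (log axis) for each p53 target gene. Filled symbols with bars are ratios as deposited with 95% counting intervals (squares where the read number is approximate), open circles are ratios divided by the median ratio of 1.45 (dashed line), and the solid line is parity. Cdkn1a lies at 15.3, 8 genes lie between 1.87 and 4.22, and the bar of Sesn1 crosses parity.

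By ratio, the order was Cdkn1a, Phlda3, Trp53inp1, Zmat3, Ccng1, Eda2r, Mdm2, Plk2, Btg2 and Sesn1. The interval of Cdkn1a lay apart from all others, and so did those of Btg2 and Sesn1. From Phlda3 down to Plk2 each interval overlapped that of the next gene in the order. The order by level was different: in the β-Gal library Ccng1 was the most abundant of the 10 in FPKM, and in the GBP5 library Cdkn1a was. Read numbers came out whole for 6 of the 10 genes. For Cdkn1a, Mdm2, Sesn1 and Plk2 they did not, and intervals there use rounded read numbers and are approximate. All intervals cover counting error only, not the spread between animals.

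**Figure D3:**
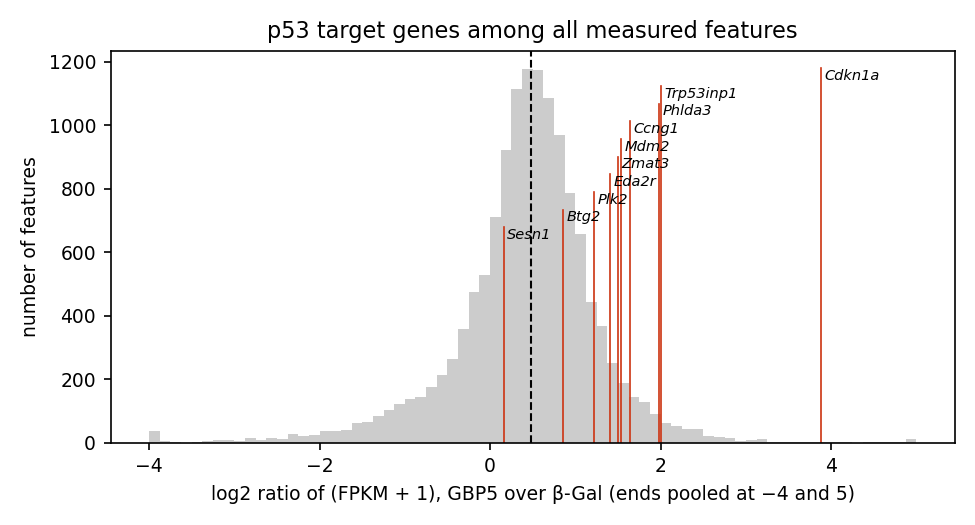
Histogram of the log2 ratio of (FPKM + 1), GBP5 over β-Gal, for the 13599 features that reached 1 FPKM in at least 1 library; the y axis counts features per bin. Vertical lines mark the 10 p53 target genes, 9 of which lie above the median of all features at 0.48 (dashed), with Sesn1 below it at 0.16.

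Each gene was set beside relatives from its own family, most of which are not known chiefly as p53 targets. Of 24 relatives, 21 were measured, 6 were at least 2-fold higher and 1 was lower (4 and 2 once rescaled), and their median log2 ratio was 0.82 (0.32 after rescaling). Over all measured features 19.2% were higher and 5.56% lower (7.04% and 9.38% once rescaled). Cdkn1b, which encodes the kinase inhibitor p27, was at 13.5 and 26.7 FPKM (1.98-fold higher), and the imprinted inhibitor gene Cdkn1c was at 2.61 and 7.57 FPKM (2.90-fold higher). Both ratios were far under that of Cdkn1a. Within a library the ratio of Cdkn1a to Cdkn1b in FPKM went from 1.63 to 12.6, a change that does not depend on how the libraries are scaled.

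For Trp53inp1, Phlda3, Ccng1, Zmat3, Eda2r and Mdm2 the measured relatives had lower ratios as well. Trp53inp2, an autophagy protein, was at 120 and 91.6 FPKM. Phlda1 went the other way from Phlda3, at 19.7 and 8.40 FPKM, and was 2.35-fold lower, whereas Phlda2, with about 7 and 20 reads, was too thinly covered to place. Ccng2, a cyclin that FOXO factors induce, was at 8.20 and 15.5 FPKM (1.89-fold higher).

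The relatives of Zmat3 and Eda2r had log2 ratios below 1. Zmat1, Zmat2 and Zmat5 had log2 ratios of 0.40, 0.84 and -0.13, and Zmat4 was listed at 0 in both libraries. Tnfrsf19 had a log2 ratio of -0.48, and Edar, with 1 read in the β-Gal library and none in the GBP5 library, was not measured.

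Sestrins, polo-like kinases and the Btg family showed the reverse order in part. Sesn3 was at 2.89 and 4.87 FPKM, a ratio of 1.68. Sesn2, itself a p53 target that amino acid shortage also induces, was at 3.66 and 13.4 FPKM, a ratio of 3.67 (interval 3.17 to 4.26). Both ratios were higher than that of Sesn1. The ratio of Sesn2 to Sesn1 within a library therefore went from 0.633 to 2.04. Plk1 and Plk4, kinases of mitosis and centriole assembly, were 6.17-fold and 6.29-fold higher, more than Plk2. Plk3, which is also listed among p53 targets, was at 22.8 and 20.1 FPKM, and Plk5 fell short of 2-fold at 2.67 and 1.05 FPKM with the pseudocount. Btg3 was at 7.03 and 27.2 FPKM, a higher ratio (3.88) than that of Btg2, and Btg1, Tob1 and Tob2 had log2 ratios of 0.82, 0.22 and 0.68. Btg4 was listed at 0 in both libraries.

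**Figure D4:**
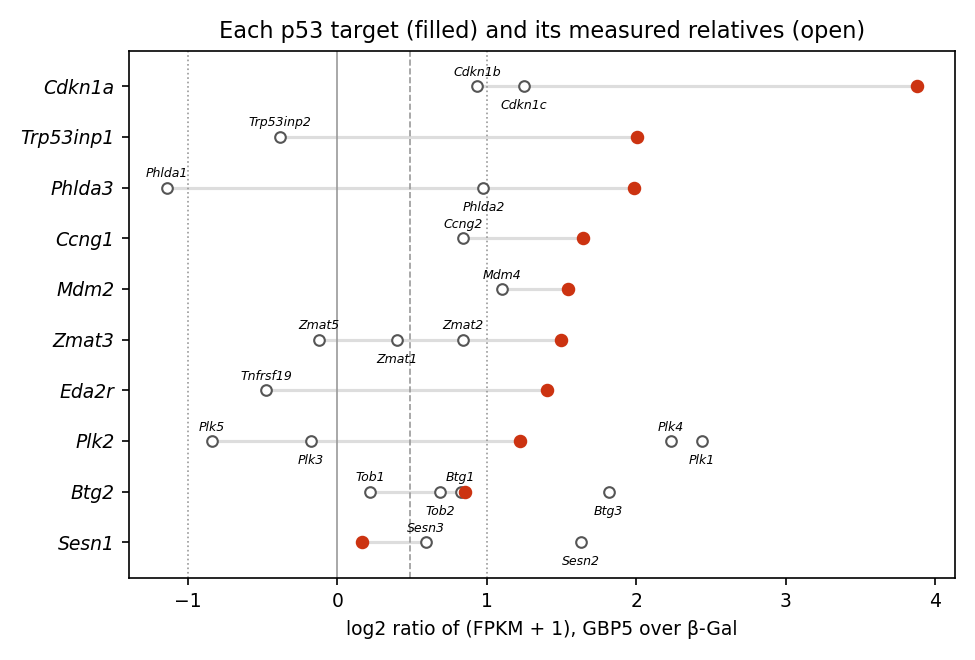
Log2 ratio of (FPKM + 1), GBP5 over β-Gal, of each p53 target gene (filled) and its measured relatives (open, labelled); dotted lines mark 2-fold in either direction and the dashed line the median of all features, 0.48. Cdkn1a at 3.88 lies beyond Cdkn1b and Cdkn1c, while Plk1, Plk4, Btg3, Sesn2 and Sesn3 lie to the right of their listed relative.

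The gene of p53 itself was higher too. Trp53 was at 10.1 FPKM with β-Gal and 32.6 FPKM with GBP5, 3.22-fold higher (interval 2.85 to 3.65, from 339 and 1021 reads), and its log2 ratio was 1.08 after rescaling. p53 is controlled mainly through protein stability, which transcripts do not report. Mdm4, a partner of Mdm2 that blocks p53, was at 20.8 and 45.7 FPKM (2.20-fold). A list of 20 genes held Trp53 itself and genes upstream of p53, and 18 of them were measured. Of these, 4 were at least 2-fold higher (Trp53, Mdm4, and the checkpoint kinase genes Chek1 and Chek2, 4.47-fold and 2.81-fold) and 0 were lower. After rescaling 2 were higher. Both shares are close to those of all features (19.2%, and 7.04% rescaled). The median log2 ratio of the list was 0.65. Cdkn2a, whose product Arf inhibits Mdm2, had 3 and 4 reads.

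Ratios between genes within a library show how unequal the changes were. The ratio of Mdm2 to Trp53 in FPKM was 2.69 with β-Gal and 2.48 with GBP5, so the pair kept nearly the same proportion. Cdkn1a to Trp53 went from 2.18 to 10.4, and Cdkn1a to Mdm2 from 0.810 to 4.17. Mdm2 to Mdm4 went from 1.31 to 1.77. Such ratios of levels depend on the transcript lengths used, whereas their change between libraries does not.

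A wider list of 60 further p53 targets was sorted by role. Of these, 56 were measured, 23 were at least 2-fold higher and 4 at least 2-fold lower. The median log2 ratio was 0.81. After rescaling 15 were higher and 5 lower, and the median became 0.38. Of all measured features 19.2% were higher and 5.56% lower (7.04% and 9.38% after rescaling), and these shares stand beside each role below. The share of the wider list that was higher lay between that of the 10 genes and that of all features. The list was assembled with earlier results of these libraries known.

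Of 10 apoptosis genes, 5 passed 2-fold upward and 0 downward (2 and 0 once rescaled). The shares of all features were 19.2% and 5.56% (7.04% and 9.38% once rescaled). Bax, the pore former of mitochondria, was at 55.3 and 159 FPKM (2.87-fold). Tnfrsf10b, a death receptor for TRAIL, was at 0.685 and 6.16 FPKM, and Pidd1, the scaffold of the PIDDosome, at 0.858 and 7.84 FPKM. These were 8.99-fold and 9.13-fold higher, the highest ratios of the group, from about 29 and 41 reads in the β-Gal library. Both lay under 1 FPKM there, so they count as measured through the GBP5 library alone. They are also the 2 genes of the group that were higher after rescaling. Aen, a nuclease, and Siva1 were 2.60-fold and 3.02-fold higher. The BH3-only genes Bbc3 (PUMA) and Pmaip1 (NOXA) had log2 ratios of 0.54 and 0.80, and Fas, also induced by inflammatory cytokines, 0.80. Ei24, the most abundant gene of the group, was at 189 and 217 FPKM.

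Among 8 measured genes of growth arrest, 3 were higher and 0 lower (2 and 0 after rescaling). All features had 19.2% higher and 5.56% lower (7.04% and 9.38% after rescaling). Gtse1 and Psrc1, which are also expressed in dividing cells, were 8.88-fold and 8.26-fold higher. Pml, the organiser of nuclear bodies and an interferon-inducible gene, was 2.10-fold higher. Gadd45a, a damage sensor, was at 10.6 and 9.41 FPKM (log2 ratio -0.15). Trp53cor1, a long noncoding RNA transcribed next to Cdkn1a, reached 0.0368 and 0.216 FPKM and was not measured.

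Of 7 DNA repair genes, 3 passed 2-fold upward and 0 downward (2 and 0 once rescaled). The shares of all features were 19.2% and 5.56% (7.04% and 9.38% once rescaled). Polk and Polh encode polymerases that copy past lesions. Polk was at 2.29 and 10.3 FPKM, and Polh at 2.16 and 6.83 FPKM. The replication clamp gene Pcna was at 67.8 and 245 FPKM (3.61-fold, interval 3.38 to 3.86). The damage recognition genes Xpc and Ddb2 had log2 ratios of -0.03 and 0.44, and Rrm2b, a ribonucleotide reductase subunit, 0.45.

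Metabolic targets went both ways, with 4 of 14 measured genes higher and 3 lower (3 and 4 after rescaling). The shares of all features were 19.2% and 5.56% (7.04% and 9.38% after rescaling). Ddit4, an inhibitor of mTOR that stress hormones and hypoxia also induce, was at 9.00 and 55.5 FPKM. Sat1, of polyamine breakdown, was at 136 and 280 FPKM. Cpt1c, at 0.292 and 3.91 FPKM, counts as measured through the GBP5 library alone. Gls2, the glutaminase of periportal hepatocytes, was the lowest, at 222 and 40.6 FPKM (5.47-fold lower). Pank1, of coenzyme A synthesis, was 4.25-fold lower and Aldh4a1, of proline breakdown, 2.53-fold lower. These 3 genes are abundant in hepatocytes. The hepatocyte markers Alb, Apoa1, Ttr, Hnf4a and Tat summed to 85858 FPKM with β-Gal and 50191 FPKM with GBP5, and their part in the lower values was not tested. Gpx1, a glutathione peroxidase, was at 1847 and 1468 FPKM.

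The remaining targets included the widest ratio of the list. Ak1, an adenylate kinase, was at 0.549 and 17.4 FPKM (31.8-fold higher, interval 18.4 to 60.2, from 13 and 386 reads). In this group 8 of 14 genes were higher and 1 was lower (6 and 1 after rescaling). All features had 19.2% higher and 5.56% lower (7.04% and 9.38% after rescaling). Gdf15, a stress hormone, was 3.02-fold higher, Tgfa, a ligand of the EGF receptor, 3.46-fold, and Thbs1, a matrix glycoprotein, 3.60-fold.

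Further higher genes of the same group were the lipase gene Abhd4 (3.15-fold), the phosphatase gene Ptp4a3 (3.39-fold), Notch1 (3.17-fold) and Dram1, of autophagy (3.58-fold). Ulk1, which starts autophagy, was 2.10-fold lower. Ephx1, a microsomal epoxide hydrolase, was at 456 and 857 FPKM and Ninj1 at 188 and 139 FPKM. Of 3 measured feedback genes, Ppm1d, Rchy1 and Cop1, none passed 2-fold, with log2 ratios of 0.58, 0.35 and 0.06.

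**Figure D5:**
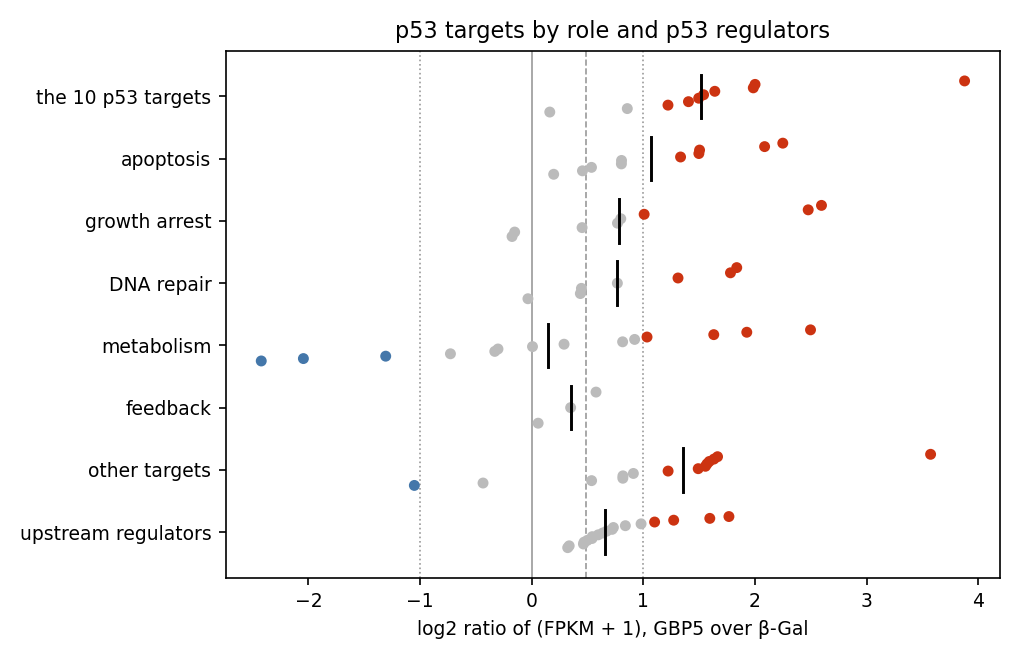
Log2 ratio of (FPKM + 1), GBP5 over β-Gal, of the measured genes of each list; colour marks genes at least 2-fold higher or lower, the vertical bar is the list's median, dotted lines mark 2-fold and the dashed line the median of all features, 0.48. The 10 p53 targets have a median of 1.52, metabolic targets of 0.15 and upstream regulators, a list that includes Trp53, of 0.65.

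Of 11 genes for the kinases and cyclins that p21 binds, 7 passed 2-fold upward and 0 downward (5 and 0 once rescaled). The shares of all measured features were 19.2% and 5.56% (7.04% and 9.38% once rescaled). The median log2 ratio of the 11 genes was 1.39. Ccne1 and Ccne2 had the largest log2 ratios, 2.84 and 2.79. The D cyclin genes Ccnd1, Ccnd2 and Ccnd3, at 0.69, 0.84 and 0.56, stayed short of 2-fold, and Cdk6 was at 10.02 FPKM with β-Gal and 9.03 FPKM with GBP5. Within a library Cdkn1a to Cdk2 in FPKM went from 3.59 to 19.1, Cdkn1a to Cdk1 from 1.60 to 4.03 and Cdkn1a to Ccne1 from 2.92 to 5.61. The inhibitor gene was therefore higher relative to each of these partners. Whether the transcripts of the inhibitor and of the partners came from the same cells cannot be told from whole liver.

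The summed levels of cell type markers differed between the libraries in both directions. In whole tissue, fewer cells of a type and less RNA per cell cannot be told apart. Summed FPKM went from 15.0 to 43.3 for 5 T and NK cell markers and from 114 to 191 for 4 macrophage markers, and from 1024 to 100.1 for 3 neutrophil markers. Cholangiocyte markers (4 genes) summed to 9.61 and 5.08, endothelial markers (3 genes) to 43.4 and 63.5, stellate cell markers (4 genes) to 16.8 and 19.3, B cell markers (3 genes) to 2.15 and 0.976, and erythroid markers (3 genes) to 546 and 476. Pancreatic acinar transcripts, 5 genes, summed to 648 FPKM with β-Gal and 0.443 with GBP5, where 3 of them were listed at 0. These sums are as deposited, and the median FPKM ratio used for rescaling was 1.45. After rescaling, median log2 ratios were 0.91 for T and NK, 0.44 for macrophage, 0.20 for endothelial and -0.21 for stellate cell markers. They were -3.77 for neutrophil, -0.50 for cholangiocyte, -0.66 for erythroid and -6.17 for acinar markers. The 1 measured B cell marker was at -0.67.

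Since Plk2 and Btg2 also respond to acute stimuli, immediate early genes were listed as well. Among the 10 measured, 4 passed 2-fold upward and 0 downward (3 and 0 once rescaled). Jun and Atf3 led with log2 ratios of 2.05 and 2.01, while Junb and Ier2 had ratios of -0.30 and 0.09. Of 11 measured circadian genes, 1 was higher (Clock, log2 ratio 1.26) and 2 were lower, with Dbp at 55.8 and 11.0 FPKM. After rescaling 0 were higher and 5 were lower. Beside both lists, all measured features had 19.2% higher and 5.56% lower (7.04% and 9.38% once rescaled). The part of cell type composition, acute stimulation and time of day in the ratios of the 10 genes was not tested.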

How the data were processed

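RNA from whole mouse liver was sequenced as 1 library per group, grouped by the adenovirus in the labels. The values deposited by the authors are FPKM per gene. The tools and build named are GRCm38, TopHat2 and HTSeq (version 0.6.1), per the submitters' processing notes. No annotation release, strand setting or FPKM program is given in the sources used here. Symbols and isoform lengths came from GENCODE M21 (GRCm38), which matched 46574 of 47442 features. Product of FPKM and mean isoform length, rounded to whole bases, came in steps of 1 read. Within 0.02 reads, or 1e-05 of large numbers, 73.8% (β-Gal) and 74.5% (GBP5) of values above 0 were whole. Log2 ratios used a pseudocount of 1 FPKM and features that reached 1 FPKM in at least 1 library, which understates the change of low genes, and a log2 ratio of 1 was the limit for 2-fold. Folds of single genes are plain FPKM ratios. Intervals are Clopper-Pearson (scipy 1.17.1, Python 3.11.15). No test was made. The calculation was tested on simulated reads.

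The 10 genes, all lists and the promoter motifs were chosen with earlier results of these data known. Named were the 10 genes, their measured relatives, Trp53, Mdm4 and upstream genes past 2-fold, wider targets past 2-fold with the 4 most abundant others, and the 2 largest ratios of other lists; further genes were named after their values were seen. One gene of the wider target list is not reported here and was left out of its counts and medians. Members of a family can share reads, and the strand setting is unknown.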

Additional observations from a re-analysis of the deposited data

How the results depend on the processing

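No paired analysis was possible because each group has 1 library, and for the same reason no replicate could be left out. The count of the 10 genes at least 2-fold higher was 8 under each setting listed here except a pseudocount of 5 FPKM (5) and rescaling by the median ratio (6), and 0 were lower under each. Their median log2 ratio was 1.64 with a pseudocount of 0.1 FPKM, 1.17 with 5 FPKM, 1.02 after rescaling, 1.61 with equal sums (TPM) and 1.38 with equal sums without the 50 most abundant genes. For the wider targets the median was 0.98 and 0.51 with those pseudocounts, 0.80 without a filter, 0.81 with a filter of 5 FPKM, 0.38 after rescaling, 0.91 with equal sums, 0.69 without the 50 genes and 0.81 for protein-coding genes, and 15 were at least 2-fold higher after rescaling. Over all features, 1101 were higher and 435 lower with a pseudocount of 5 FPKM, and 958 and 1276 after rescaling. Each of the 10 genes stayed above 0 except Sesn1, at -0.29 after rescaling. Genes with few reads in the β-Gal library, such as Ak1 and Pidd1, have wide counting intervals.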

Other observations

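The nearest measured genes on either side of each of the 10 p53 targets were looked up, 20 genes in all. Of these, 8 passed 2-fold upward and 0 downward, and their median log2 ratio was 0.67. Over all measured features 19.2% were higher and 5.56% lower, with a median of 0.48. Among the higher neighbours, Gm11827 and Heph lay under 1 FPKM with β-Gal and count as measured through the GBP5 library alone. After rescaling 2 were at least 2-fold higher (Srsf3 and Ccne2) and 2 at least 2-fold lower (Prelp and Chil1). The rescaled shares of all features were 7.04% and 9.38%, close to those of the 20 neighbours. Next to Trp53inp1, at 16.97 kb, lies the S phase cyclin gene Ccne2, with levels of 3.29 FPKM with β-Gal and 28.6 FPKM with GBP5. That neighbour's ratio, 8.72, was larger than the 4.10 of Trp53inp1. Cdkn1a lies between the splicing factor gene Srsf3, at 32.0 and 94.3 FPKM, and Rab44, at 1.35 and 0.973 FPKM, neither of which shared its ratio. Both neighbours of Btg2 had lower values in the GBP5 library, Prelp at 14.1 and 8.91 FPKM and Chil1 at 7.59 and 4.11 FPKM. Sesn1 starts 0.064 kb from Cep57l1, a gene at 3.81 and 7.60 FPKM.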
